A study of Mus musculus with 4 samples.

Results

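Interferon-stimulated antiviral genes were followed in lamina propria lymphocytes, the lymphoid cells of the connective tissue under the gut lining. The set held 35 genes chosen by name, and its members were the probes whose RefSeq accession belongs to one of them. A probe was found for 33 of the 35, by 43 of the 39429 non-control probes, among 20659 genes that could be named. Of the 33 genes 23 had 1 probe and 10 had 2, while Mx1 and Mx2 had none by this rule and are named only.

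The cells came from C57BL6 mice, either wild type or Stat4-/-, that is, without the transcription factor that passes on interleukin-12 signals in lymphocytes. Every animal of the groups used here had been given dextran sulfate sodium (DSS), which damages the colon epithelium, and colons were taken on day 10. Within each genotype a group received DSS alone and another received DSS together with leukemia inhibitory factor (LIF), which signals through the gp130 receptor chain. A single array read each group, for which the labels name 5 mice without stating whether they were pooled. The arrays are called the wild-type DSS, wild-type LIF, knockout DSS and knockout LIF array, and 4 values in a row follow that order. With 1 array a group nothing here has a replicate check, and p-values were not computed.

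Type I and type III interferons signal through the kinases Jak1 and Tyk2 to a complex that holds Stat2 and Irf9 and binds the interferon-stimulated response element of its target genes. Interferon gamma acts through a gamma-activated site in its targets, with Irf1 among the genes induced directly. The products sense viral RNA, block entry, translation or replication of viruses, or attach the modifier Isg15 to proteins. In the gut these genes are known to rise in epithelium and immune cells during infection and inflammation.

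The response element was looked for in the promoters of the set, to show letters that many members have in common. RefSeq promoters of build GRCm38.p6, windows of 300 bases around the start site, were found for 25 members. GAAA, any 2 bases and GAAA again, on either strand, stood in a promoter of 13 of these 25 genes (52%), against 3.99% of all 27025 genes in that table and 3.44% of its 32851 promoters. The core of the gamma-activated site, TTCNNNGAA, which reads the same on both strands, stood in 8 of 25 members (32%), against 9.55% of all genes and 8.3% of all promoters. In Bst2 and Ifitm3 a match of each kind overlapped. A match is a run of letters and no shown binding site. The stretches printed here lie before the start site, run 5′ to 3′ on the strand of the gene, and carry the matches in capitals. The first 5 show the response element in genes that the arrays read very differently, and the last shows the gamma-activated site core of Irf1.
Isg15, chr4:156200845-156200926, minus strand: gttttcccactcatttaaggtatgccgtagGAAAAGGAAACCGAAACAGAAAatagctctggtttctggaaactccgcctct
Ifit1, chr19:34640755-34640843, plus strand: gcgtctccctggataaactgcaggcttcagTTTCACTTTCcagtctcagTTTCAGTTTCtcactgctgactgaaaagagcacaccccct
Ifit3, chr19:34583343-34583446, plus strand: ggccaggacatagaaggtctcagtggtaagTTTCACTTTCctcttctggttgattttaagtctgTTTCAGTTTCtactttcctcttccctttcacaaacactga
Oas1a, chr5:120907526-120907575, minus strand: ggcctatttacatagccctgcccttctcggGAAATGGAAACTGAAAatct
Rsad2, chr12:26456533-26456602, minus strand: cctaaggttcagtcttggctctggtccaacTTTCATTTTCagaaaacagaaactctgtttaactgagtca
Irf1, chr11:53769894-53769962, plus strand: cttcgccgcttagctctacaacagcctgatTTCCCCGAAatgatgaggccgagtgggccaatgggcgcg
Isg15 held 3 overlapping matches in 1 run, and Ifit1, Ifit3 and Oas1a held 2 each.

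A level here is the log2 of the background-subtracted signal after the array's own 75th percentile was taken off, so that 0 is the level below which 75% of spots lie. The arrays differed in brightness, with that percentile at 122.9, 23.8, 45.3 and 43.3. From 37.6% to 61.7% of all probes were well above background, and from 53.5% to 79.1% of the member probes, with the wild-type LIF array lowest in both. That array also stood apart in pattern, with Pearson correlations of 0.800 to 0.818 to the other arrays over 12674 probes, against 0.951 to 0.980 among the other 3. These correlations are across probes, which are not replicates. Both DSS arrays were read in scan 1 and each LIF array in a scan of its own, so LIF and scan cannot be told apart. The Stat4 probe had levels of -0.49, 0.21, 0.31 and -0.48 and did not separate the genotypes. Where in the gene it lies is unknown here, and the knockout is called labelled knockout below, with every direction between genotypes taken from the labels alone.

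Markers of lymphocytes were present, and so were those of other cells. All 9 T cell genes and all 9 intestinal epithelial genes were well above background on every array. Summed signals of the T cell genes, in multiples of the 75th percentile, were 27.0, 45.2, 20.3 and 18.6. Those of 7 NK cell genes were 37.7, 86.0, 13.5 and 9.29, with Klrk1 below background throughout and Nkg7 the brightest on every array. Of the 7, 6, 4, 5 and 3 were well above background. Under DSS 3 of 5 measured were at least 2-fold lower in labelled knockout and 0 higher, against 6.94% and 13.2% of all genes. Klrb1c and Prf1 had log2 differences of 0.02 and 0.59 there. Summed signals of 9 neutrophil genes ran the other way between genotypes, at 551.6, 380.4, 3299 and 2499, with Cxcr2 below background throughout. The 9 epithelial genes summed to 156.2, 273.6, 181.6 and 166.0, with Lgals4 the brightest of them on every array. The sum was highest on the wild-type LIF array, but the single genes did not move together. With LIF in wild type Krt20 was at least 2-fold higher and 3 of the 9, Epcam, Krt8 and Krt19, were lower. The shares of all genes were 34.4% and 13.7%. The epithelial median was 0.41, beside 0.57 for all genes. Sums of 6 pancreatic acinar genes were 102.8, 38.1, 123.9 and 364.8. In such mixed samples fewer cells of a type and less RNA per cell cannot be told apart, and the part of these markers in the differences described next was not tested.

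Of the 33 members with a probe 19 were well above background on all 4 arrays, 6 on 3, 3 on 2, 1 on 1 and 4 on none. The 4 were Ifit1, Ifit2, Oas3 and Eif2ak2. Ifit1 binds viral RNA without the cap mark of the host, and Ifit2 is of the same family. Oas3 makes the messenger that activates RNase L, and Eif2ak2 is the kinase PKR that halts translation. Of these, Ifit1, Oas3 and Eif2ak2 had a response element match.

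**Figure D1:**
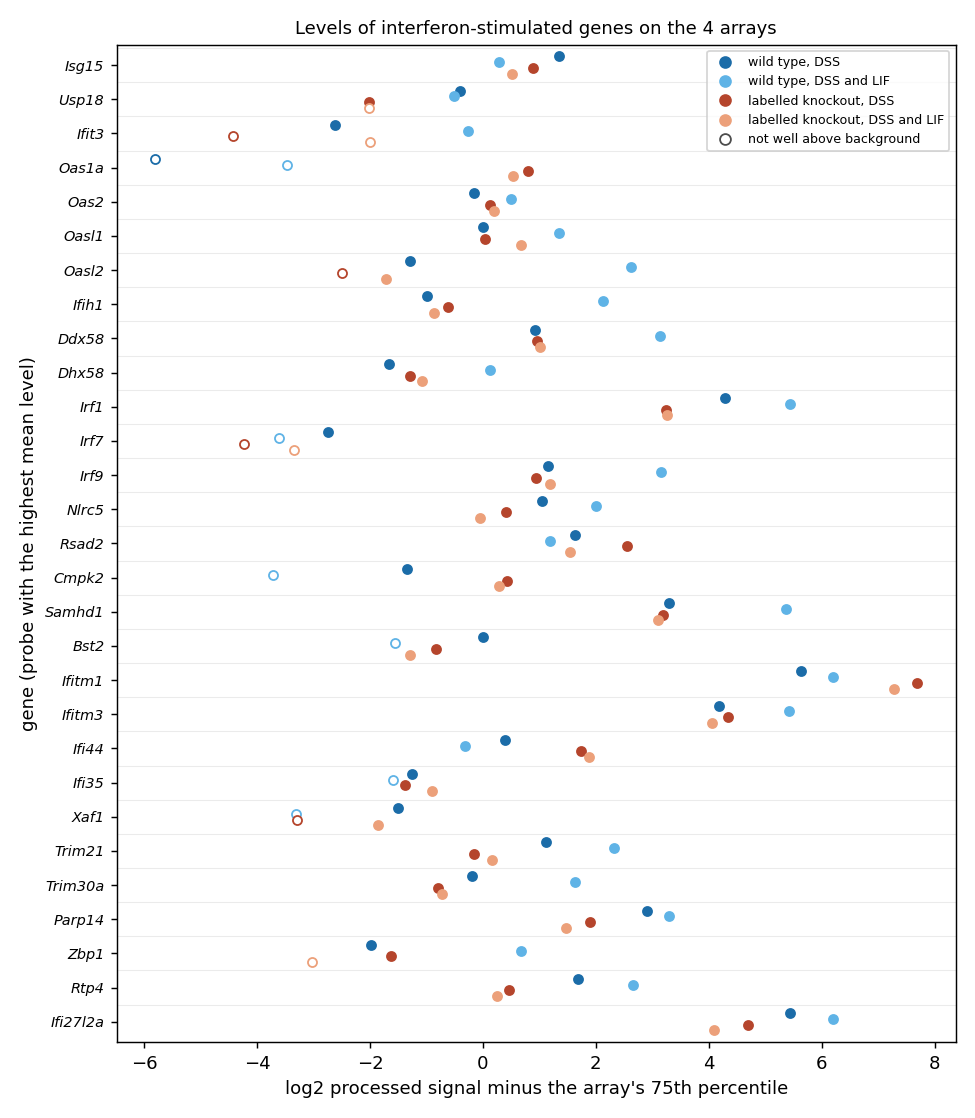
Log2 level (processed signal minus the array's 75th percentile, horizontal axis) of the 29 members well above background on at least 1 array, with 1 point for each of the 4 arrays and open points where the plotted probe was not well above background. The points of wild type with DSS plus LIF lie farthest right for 15 of the 19 genes measured on all 4 arrays.

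Isg15, the ubiquitin-like modifier, had levels of 1.35, 0.29, 0.88 and 0.52. It was highest on the wild-type DSS array, and both LIF arrays lay below both DSS arrays. Usp18, the protease that removes Isg15 and damps the interferon receptor, had -0.40 and -0.52 in wild type and -2.02 and -2.01 in labelled knockout, the last not well above background. Wild type lay above labelled knockout for Usp18 whatever the treatment.

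Ifit3, the partner of Ifit1 on viral RNA, was well above background in wild type alone, at -2.63 and -0.27, against -4.42 and -2.00 in labelled knockout. The lowest level of any probe so marked was -3.79, -1.49, -2.13 and -2.04. A level of -2.63 thus passed on the wild-type DSS array only, and the unmarked knockout LIF level lay above it. Among the oligoadenylate synthetases, which make the messenger for RNase L, Oas2 had levels of -0.15, 0.50, 0.13 and 0.19 and Oasl1, a synthetase-like protein without that activity, 0.00, 1.35, 0.05 and 0.67. Oas2 stayed within 2-fold in all 4 comparisons. Oasl2 had levels of -1.30, 2.63, -2.49 and -1.72, with the knockout DSS array not well above background, and stood far above the rest on the wild-type LIF array.

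Oas1a ran opposite to Oasl2, with -5.81 and -3.47 in wild type, neither well above background, and 0.80 and 0.52 in labelled knockout. That is at least 24.0-fold higher in labelled knockout under DSS and at least 4.05-fold under DSS plus LIF. Such bounds take, for the dim array, the higher of the probe's own level and the lowest level well above background there. Its second probe was not well above background on any array, and Oas1a has near-identical neighbours, so which copy was read is uncertain.

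The RNA helicases that sense viral RNA had a common pattern by their brightest probes. Ifih1, the sensor MDA5 of long double-stranded RNA, had levels of -0.99, 2.13, -0.63 and -0.86. Ddx58, the sensor RIG-I of RNA ends, had 0.91, 3.14, 0.96 and 1.01, and Dhx58, their regulator LGP2, had -1.67, 0.13, -1.30 and -1.08. For all 3 the wild-type LIF array was more than 2-fold above each other array, and the other 3 arrays lay within 2-fold of each other.

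Irf1, a transcription factor of interferon gamma responses, had levels of 4.29, 5.45, 3.25 and 3.26, with both wild-type arrays above both labelled knockout arrays. Irf9, the DNA-binding subunit of the complex with Stat2, had 1.16, 3.15, 0.94 and 1.20, high on the wild-type LIF array alone. Nlrc5, the activator of MHC class I genes, had 1.04, 2.00, 0.40 and -0.05, again with no overlap of the genotypes. Irf7, the driver of interferon alpha genes, was well above background on the wild-type DSS array alone, with levels of -2.74, -3.62, -4.23 and -3.35. A level of -2.74 lies below the lowest so marked on each other array.

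Among the enzymes, Rsad2, which makes a chain-ending nucleotide, had levels of 1.64, 1.20, 2.55 and 1.54, highest on the knockout DSS array. Samhd1, which depletes the building blocks of DNA, had 3.30, 5.37, 3.18 and 3.09, and was high on the wild-type LIF array with the other arrays close together. Cmpk2, a mitochondrial nucleotide kinase, had -1.34, -3.71, 0.43 and 0.29, the second not well above background.

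Ifitm1, a membrane protein that blocks viral entry, had levels of 5.63, 6.20, 7.70 and 7.28, with both labelled knockout arrays above both wild-type arrays. Ifitm3, of the same family, was read by 10 spots per array and had 4.18 ± 0.05, 5.42 ± 0.07, 4.35 ± 0.04 and 4.05 ± 0.05 (SD over n = 10 spots of 1 array). It was high on the wild-type LIF array, and the spot spread says nothing of the spread between mice. Bst2, the tether that holds budding virus at the cell surface, had 0.00, -1.56, -0.83 and -1.30, the second not well above background, and was highest on the wild-type DSS array.

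Among the other effectors, Trim21, an antibody receptor and ubiquitin ligase of the cytosol, had levels of 1.12, 2.32, -0.15 and 0.16. Trim30a, a ubiquitin ligase, had -0.20, 1.63, -0.79 and -0.72. Rtp4 had 1.68, 2.66, 0.45 and 0.24, and Parp14, an ADP-ribosyltransferase, had 2.90, 3.30, 1.90 and 1.47. Ifi27l2a, a small gene strongly induced by interferon, had 5.44, 6.20, 4.69 and 4.09. In these 5 genes both wild-type arrays lay above both labelled knockout arrays.

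Ifi44 showed the opposite order, with 0.39 and -0.33 in wild type and 1.73 and 1.88 in labelled knockout. Zbp1, a sensor of Z-form nucleic acid that can trigger cell death, had -1.99, 0.68, -1.64 and -3.03, the last not well above background. Xaf1 had -1.50, -3.32, -3.30 and -1.86, not well above background on the wild-type LIF and knockout DSS arrays. Ifi35 had -1.26, -1.59, -1.37 and -0.90, not well above background on the wild-type LIF array. Zbp1 was high on the wild-type LIF array, and Xaf1 and Ifi35 were not.

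The wild-type LIF array held the highest level of 15 of the 19 members measured on all 4 arrays, against 53.6% of all genes so measured. It was at least 2-fold above each other array for 9 of the 19, against 20.2% of all genes. These 9 were Ddx58, Dhx58, Ifih1, Ifitm3, Irf1, Irf9, Samhd1, Trim21 and Trim30a. Over the other 3 arrays the range of a member had a median of 0.83 log2 units, from 0.09 to 2.06. That range was not computed for all genes, so it cannot be read as a trait of the set.

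Labelled knockout against wild type under DSS alone asks which members differ with Stat4 in the inflamed colon, and its arrays shared a scan. Usp18, Trim21, Rtp4 and Irf1 were 3.07-fold, 2.41-fold, 2.34-fold and 2.05-fold lower in labelled knockout, with Parp14 just short of 2-fold. Ifitm1, Cmpk2 and Ifi44 were 4.17-fold, 3.43-fold and 2.53-fold higher. Of 24 members measured on both arrays 4 (16.7%) were at least 2-fold lower, against 6.94% of all 10529 genes measured, and 3 (12.5%) were at least 2-fold higher, against 13.2%. The member median was -0.11 on the log2 scale, with 13 below 0 and 11 above, beside 0.07 for all genes. The scanner software's error of these differences, which covers the spots alone, had a median of 0.21 and reached 0.34, for Usp18. Quantile scaling gave 5 lower and 3 higher, against 7.33% and 11.9% of all genes.

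The same genotypes under DSS plus LIF differed in more members, with the wild-type array that stood apart and with different scans. Of 20 members measured 14 (70%) were at least 2-fold lower in labelled knockout, against 31.3% of 8348 genes, and Ifi44 and Ifitm1 (10%) were higher, against 14.2%. Oasl2 was 20.3-fold lower, Ifih1 7.99-fold, Rtp4 5.33-fold, Trim30a 5.08-fold, Samhd1 4.86-fold and Irf1 4.56-fold. Zbp1 was at least 6.60-fold lower, Ifit3 at least 3.32-fold and Usp18 at least 2.82-fold. Ifi44 was 4.62-fold and Ifitm1 2.12-fold higher, and Cmpk2 was at least 3.44-fold higher. The member median was -2.00, beside -0.45 for all genes. With normexp (offset 50), a background correction that damps dim signals, 11 were lower and 0 higher, against 14.4% and 5.23% of all genes. Ifitm1 was close to level with normexp (offset 0).

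**Figure D2:**
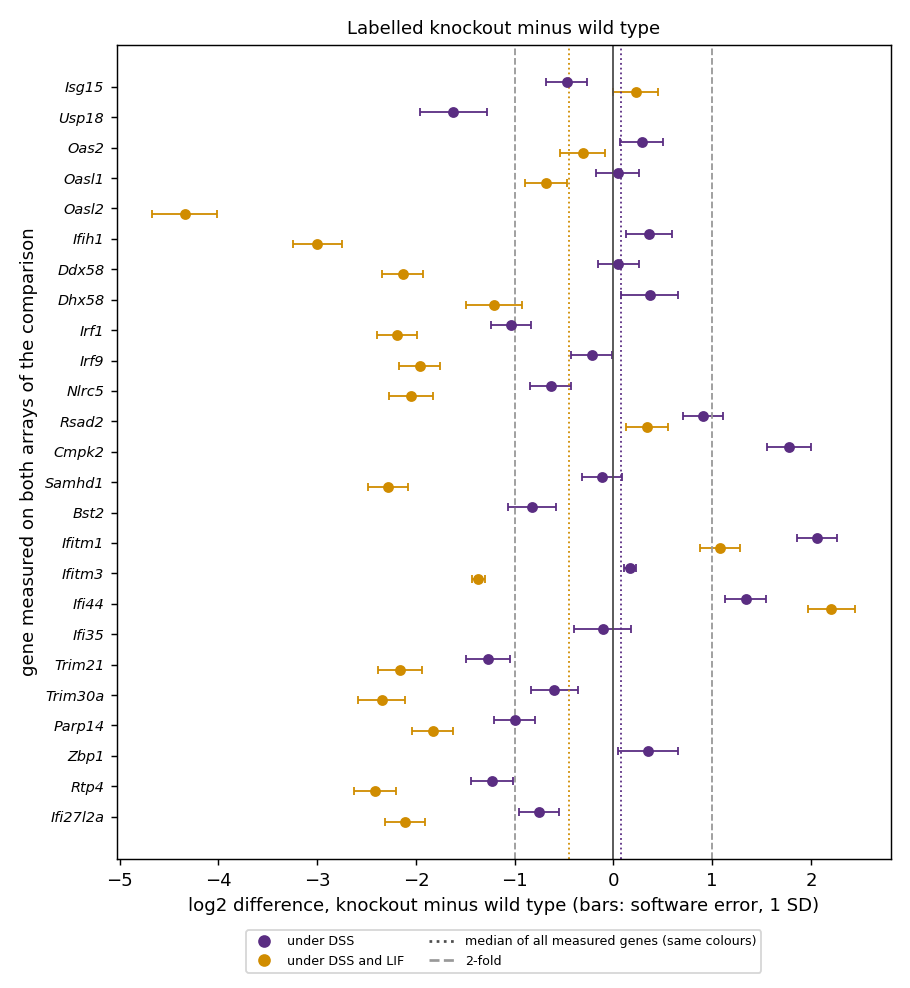
Log2 difference, labelled knockout minus wild type (horizontal axis), of each member measured under DSS (purple) or under DSS plus LIF (orange), with bars for the software error (1 SD), dotted lines for the median of all measured genes and dashed lines at 2-fold. Orange points lie at or beyond -1 for 14 of 20 members, purple points for 4 of 24.

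Across both treatments 8 of the 19 members measured on all 4 arrays had both labelled knockout arrays below both wild-type arrays, 42.1% against 24.1% of 8039 genes. They were Ifi27l2a, Irf1, Nlrc5, Parp14, Rtp4, Samhd1, Trim21 and Trim30a. The gap between the genotypes ran from 0.12 for Samhd1, which is below its software error of 0.20 and rests on its brightest probe, to 1.23 for Rtp4. Ifi44 and Ifitm1 lay the other way, with gaps of 1.34 and 1.08, 10.5% of members against 16.3% of all genes.

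LIF against no LIF in wild type again rests on the wild-type LIF array and on different scans. Oasl2 was 15.2-fold higher with LIF, Ifih1 8.70-fold, Zbp1 6.35-fold, Ifit3 5.14-fold, Ddx58 4.67-fold, Samhd1 4.22-fold and Irf9 3.99-fold. Trim30a, Dhx58, Oasl1, Ifitm3, Trim21 and Irf1 were 2.23-fold to 3.54-fold higher. Of 23 members measured these 13 (56.5%) were at least 2-fold higher, against 34.4% of 8983 genes, and Isg15 (4.35%) was lower, by 2.08-fold, against 13.7%. Bst2 was at least 2.82-fold lower, and Cmpk2 at least 1.51-fold by its second probe, not the one whose levels are given above. Usp18 and Rsad2, which type I interferon commonly induces together with Isg15, had log2 differences of -0.11 and -0.44.

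The member median with LIF in wild type was 1.21, beside 0.57 for all genes, and 17 of 23 lay above the latter. Scaling on the median of probes that all arrays measured put the all-gene median at 0.43, and normexp (offset 50) put it at 0.06. With normexp (offset 50) 4 of 23 members were higher and 0 lower, against 8.85% and 17.1% of all genes, and Irf1 was close to level.

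LIF against no LIF in labelled knockout gave small differences. Of 23 members measured 0 were at least 2-fold higher, against 3.22% of 9781 genes, and Rsad2 (4.35%) was lower, by 2.01-fold, against 3.07%. The highest difference was 0.63, of Oasl1, and the member median was -0.14, beside -0.01 for all genes. Oasl2 was at least 1.33-fold higher, Xaf1 at least 1.20-fold higher and Zbp1 at least 1.33-fold lower. Quantile scaling left 0 members lower, against 3.34% of all genes. Normexp gave 4 (offset 50) and 7 (offset 0) lower, against 8.87% and 24.2% of all genes.

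**Figure D3:**
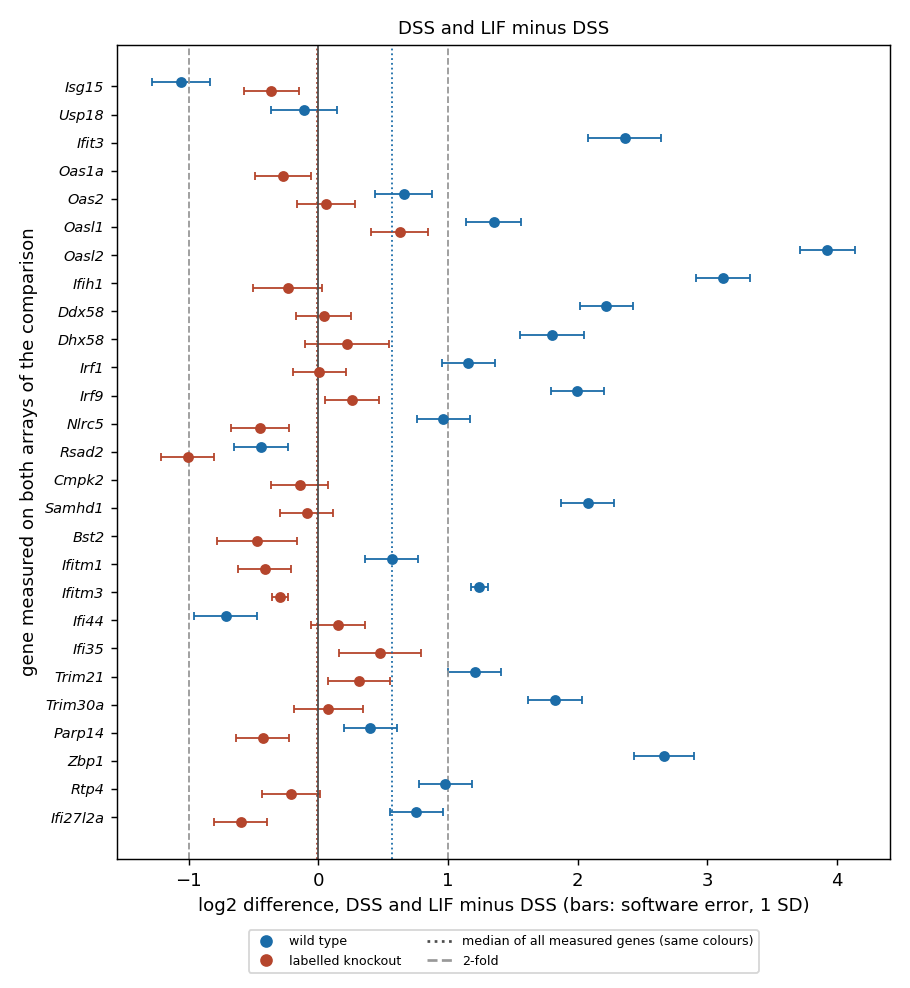
Log2 difference, DSS plus LIF minus DSS (horizontal axis), of each measured member in wild type (blue) and in labelled knockout (red), with bars for the software error (1 SD), dotted lines for the median of all measured genes and dashed lines at 2-fold. Blue points reach 3.93 for Oasl2, while red points stay between -1.01 and 0.63.

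Set side by side, the LIF log2 difference was at least 1 lower in labelled knockout than in wild type for 11 of 19 members (57.9%), against 33.4% of 8039 genes, and at least 1 higher for 0, against 16.7%. Ifih1 had the widest gap, with 3.12 in wild type and -0.24 in labelled knockout. For Ddx58, Dhx58, Irf9, Oas2 and Oasl1 (26.3%) both LIF arrays lay above both DSS arrays, against 17.7% of all genes. For Isg15 and Rsad2 both lay below, 10.5% against 8.52%. These gaps were not tested, and comparisons that share an array are not independent.

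**Figure D4:**
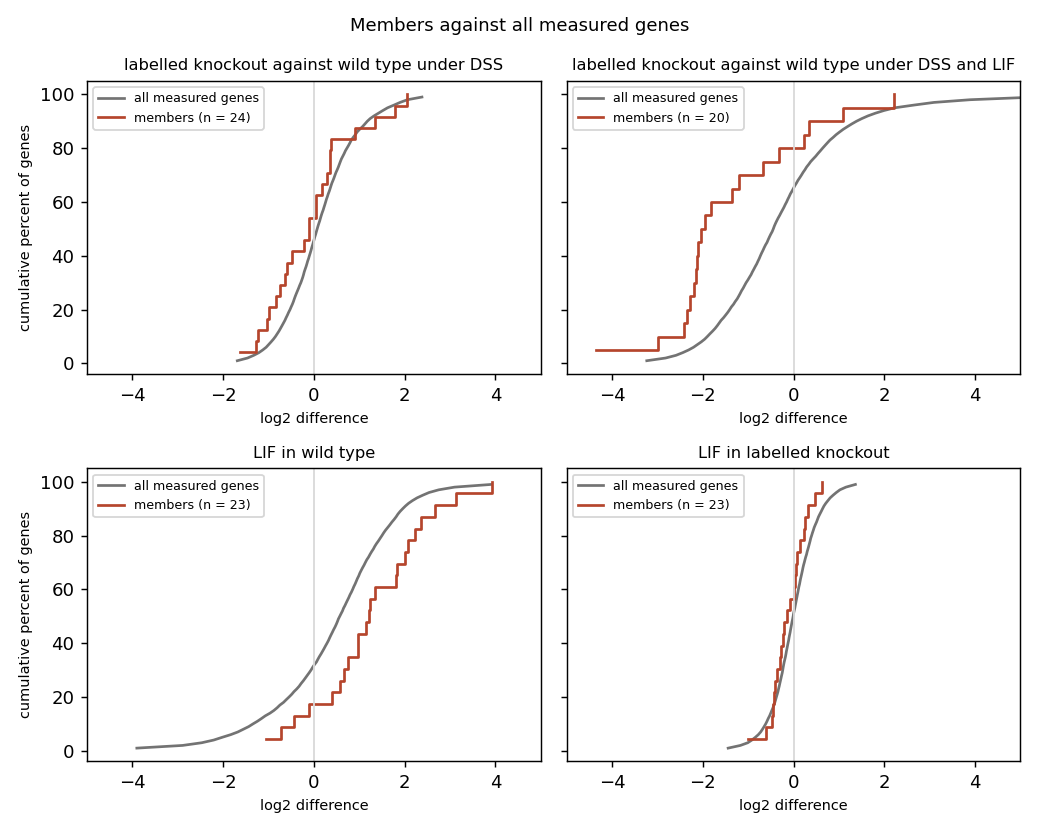
Cumulative percent of genes (vertical axis) against log2 difference (horizontal axis) for the measured members (red steps) and for all measured genes between their 1st and 99th percentiles (grey), in each of the 4 comparisons. Members lie left of all genes where labelled knockout is set against wild type with LIF (median -2.00 against -0.45) and right of them for LIF in wild type (1.21 against 0.57).

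Second probes, which 10 members had, did not always follow the brightest. They were well above background for 6 of 10 on the wild-type DSS array, for 4 on each labelled knockout array and for 0 on the wild-type LIF array. The second probe of Ddx58 had levels of -0.82, -3.78, -1.94 and -1.69, which makes it at least 1.59-fold lower with LIF in wild type, where the brightest was 4.67-fold higher. That of Samhd1, which carries another RefSeq transcript than the brightest, had -0.50, -2.13, -1.03 and -1.48, at least 2.00-fold lower with LIF in wild type. The direction of LIF in wild type thus depends on the probe for Ddx58 and Samhd1. So does that of Samhd1 between genotypes under DSS plus LIF, where the brightest probe was 4.86-fold lower in labelled knockout and the second was at least 1.01-fold higher.

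Under DSS alone 4 members had both probes measured in both genotypes. Cmpk2 differed by 1.78 with the brightest probe and by -1.02 with the other, Ddx58 by 0.05 and -1.11, and Nlrc5 by -0.64 and 0.18. Samhd1 alone had equal signs, with -0.12 and -0.54. The higher level of Cmpk2 in labelled knockout thus rests on 1 of its 2 probes.

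Members with a response element match were set beside those whose promoter held none. With LIF in wild type 8 members with a match had a median of 1.53, with 6 at least 2-fold higher and 1 lower, and 7 without one had 1.35, with 5 higher and 0 lower. All genes had a median of 0.57, with 34.4% higher and 13.7% lower. Labelled knockout against wild type with LIF gave medians of -2.13 over 7 members with a match and -1.96 over 7 without, beside -0.45 for all genes. The stretches of Isg15 and Ifit1, with 3 and 2 matches, belong to a member that was lower with LIF in wild type and to a member not well above background anywhere.

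Among the interferon genes themselves, Ifng, which encodes interferon gamma, had levels of 0.36, 1.62, -3.10 and -1.84, with the knockout DSS array not well above background. It was at least 5.63-fold lower in labelled knockout under DSS and fell by 3.46 on the log2 scale under DSS plus LIF, and was 2.39-fold higher with LIF in wild type. Of 19 ligand genes 15 had a probe and 10 were well above background on some array, and Ifnb1, the gene of interferon beta, was not. Of 9 measured under DSS 4 were higher in labelled knockout and 0 lower, against 13.2% and 6.94% of all genes. The interferon alpha genes are so alike in sequence that single ones cannot be read apart with certainty. All 6 receptor genes were measured under DSS. Ifnar1, a chain of the type I receptor, was 3.64-fold higher in labelled knockout and the others under 2-fold, against 13.2% of all genes. Under DSS plus LIF 3 were measured, and Ifnar1 alone was higher, by 33.2-fold, with 0 lower, against 14.2% and 31.3%. Ifnar2 was at least 2.31-fold higher there. With LIF in wild type, Ifnar1 was 8.17-fold lower and Ifngr1 2.04-fold higher of 3 measured, against 13.7% and 34.4%. Ifngr2 was at least 2.10-fold lower.

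Downstream of the receptors, Stat2, the partner of Irf9, had levels of 0.00, 2.29, -0.74 and -0.48. It was 4.90-fold higher with LIF in wild type and 6.83-fold lower in labelled knockout under DSS plus LIF, the pattern of the sensors. Jak1 and Jak2 differed by less than 2-fold in all 4 comparisons.

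Of 19 genes mainly induced by interferon gamma 11 were measured under DSS, and 5 were at least 2-fold lower in labelled knockout with 0 higher, against 6.94% and 13.2% of all genes. They were Iigp1, Igtp, Irgm2 and Irgm1, GTPases that attack the vacuoles of microbes, at log2 differences of -2.49, -1.75, -1.48 and -1.19, and Psmb8, an immunoproteasome subunit, at -1.13. The list median was -0.99, beside 0.07 for all genes. Listed genes dim in labelled knockout stand outside these counts. Under DSS Ido1 was at least 33.1-fold lower there, Gbp5 3.52-fold, Cxcl10 2.44-fold and Gbp3 2.18-fold. Under DSS plus LIF 4 of 9 were lower and 0 higher, against 31.3% and 14.2%, with a list median of -0.39 beside -0.45. Outside these 9, Ido1 was at least 69.5-fold lower, Cxcl10 17.6-fold, Gbp3 7.92-fold and Gbp2 2.78-fold. No listed gene had a bound on the higher side in either comparison. Under DSS plus LIF, however, Iigp1, Cxcl9 and Psmb8 had neither a measured difference nor a usable bound. Their brightest probes were well above background in labelled knockout alone, at 0.51, -1.20 and -1.79. The dim levels in wild type were -1.38, -1.60 and -1.98. LIF in wild type gave 4 of 13 higher and 1 lower, against 34.4% and 13.7%, with a list median of 0.38 beside 0.57. Of 39 further genes of the interferon response 27 were measured under DSS, 4 higher and 2 lower (median 0.19), against 13.2% and 6.94% of all genes. Labelled knockout with LIF had 11 of 23 of them lower and 2 higher, against 31.3% and 14.2%, with a list median of -0.86 beside -0.45. With LIF in wild type 10 of 27 were higher and 2 lower, against 34.4% and 13.7%, and the list median was 0.77 beside 0.57. The share of higher genes there was close to that of all genes. In labelled knockout LIF left 0 of 23 higher and 2 lower, against 3.22% and 3.07%.

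Genes that induce interferon or hold it back were counted last. Of 15 sensors and adaptors 11 were measured under DSS, 2 higher and 0 lower in labelled knockout, against 13.2% and 6.94% of all genes. With LIF in wild type 9 were measured, 3 higher and 1 lower, against 34.4% and 13.7%. Of 8 negative regulators 8 were measured under DSS, 1 higher and 0 lower, and 7 with LIF in wild type, 3 higher and 1 lower, beside the same shares of all genes. The counts of both lists were near those shares. With LIF in wild type the largest difference among the sensors and adaptors was 5.75, of Tlr7, whose levels were -2.87 and 2.88. Among the listed negative regulators it was 4.03, of Isg20, an exonuclease that is itself an interferon-induced effector.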

How the data were processed

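RNA of lamina propria lymphocytes was read on 1-colour Agilent arrays, 1 per group. The deposited scanner files hold spot intensity values made with Agilent Feature Extraction, version 11.0.1.1 per the file headers, while the submitters' processing notes name 9.1. Marks for background, saturation and spot outliers are other columns that the authors deposited there. The authors' deposited log2 table, an alternative here, had column medians of 3.31, 2.54, 3.31 and 3.31, and its second column's lowest value equals its median. Its scaling and floor are not stated.

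Outlier spots were left out, log2 values of a probe's spots averaged, and each array's 75th percentile subtracted. A probe was well above background where at least 50% of its used spots were so marked. Names came from RefSeq accessions (GRCm38.p6 table, 27234 of 39429 probes, 69.1%). A gene was read by its probe of highest mean level and measured where both arrays held that probe well above background. A member with all probes dim on 1 array got a bound where one could be had. Differences were counted from a log2 size of 1. Every member is named, with its 4 levels where a probe was well above background on some array, and list genes are named from a log2 size of 1, or after their values were seen (Jak1, Jak2, Ifnb1). Members and lists were chosen with earlier results of these data known. Counting was tested on simulated data. Alternatives were quantile scaling and normexp on median signals (limma 3.58.1, R 4.3.3), median scaling, other filters, the mean over probes and the deposited values.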

Additional observations from a re-analysis of the deposited data

Results flagged for a closer look

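In 3 members a difference had opposite signs in both genotypes or both treatments, each larger than 2 software errors and on opposite sides of the median of all genes. The difference between contexts was not tested. Ifitm3 had a LIF log2 difference of 1.24 in wild type and -0.30 in labelled knockout, and a labelled knockout minus wild type difference of 0.17 under DSS and -1.37 under DSS plus LIF. For Ifi27l2a the LIF difference was 0.76 in wild type and -0.60 in labelled knockout. Nlrc5 had 0.96 and -0.45, and its second probe was not well above background on either LIF array. Each pair involves the wild-type LIF array.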

How the results depend on the processing

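In 27 alternatives each, the numbers of higher and of lower members stayed within 1.5 times those reported, and the exceptions follow. Labelled knockout against wild type with LIF had 2 higher members, but 1 with quantile scaling, normexp (offset 0) or the authors' deposited values, 0 with normexp (offset 50) and 5 with no background filter. The shares of all genes, in that order of settings, were 14.2%, 5.45%, 14.7%, 5.23% and 16.9%. LIF in wild type had 4 higher and 0 lower with normexp (offset 50), and 4 lower with no filter. LIF in labelled knockout had 0 lower with quantile scaling, 4 with normexp (offset 50), 7 with normexp (offset 0) and, with no filter, 2 higher and 2 lower. Labelled knockout against wild type under DSS had 8 lower with no filter, against 9.8% of all genes. Leaving out the filter adds members below background, so that 33 were counted. The shares of all genes were then 16.3% lower for LIF in wild type. For LIF in labelled knockout they were 12% higher and 5.63% lower. The sign turned for Irf1 with LIF in wild type (-0.0483 with normexp, offset 50), Ifitm1 between genotypes with LIF (-0.0568 with normexp, offset 0) and the member median of LIF in labelled knockout (0.0414 with no filter). The cause was not tested. Member median minus all-gene median stayed between -1.58 and -0.78 for the genotypes with LIF and between 0.24 and 0.68 for LIF in wild type. Choosing probes without the wild-type LIF array, an alternative added after seeing the data, left the counts of both comparisons that do not use it as reported. No paired analysis was possible because each group has 1 array, so none could be left out either. Signal over background limits the wild-type LIF array most, where 23 of 33 members were measured.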
